A study of Mus musculus with 12 samples.

Results

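Mouse embryos that had resumed division after a block of ERK signalling were compared with undisturbed embryos of the same day. The comparison used 4 of the 12 arrays of the series, the 2 labelled as embryos released from the arrest at day 3.5 and the 2 labelled as control embryos at day 3.5, chosen by their titles alone. Released embryos at day 3.5 had been arrested at the 4-cell stage with U0126, an inhibitor of the MEK kinases that activate ERK, and were described as 8-cell embryos. Control embryos at day 3.5 were untreated and were described as morulae to blastocysts. The groups therefore shared their day and differed in their stated cell number and in their past exposure to the inhibitor. Further groups served as reference, namely embryos under 20 µM U0126 at day 2.5 (4 cells, arrested), released embryos at day 4.5 (morula to blastocyst), and control embryos at day 1.5 (2 cells) and day 2.5 (4 to 8 cells), each with 2 arrays. All embryos were of the ICR strain. The sources used here do not give the number of embryos behind an array, the time at which U0126 was removed, or a count of cells.

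In the mouse the embryonic genome is switched on around the 2-cell stage, when a burst of genes that includes Zfp352 and the Tcstv family is transcribed and then shut off again within a division or so. Transcripts stored in the oocyte are destroyed over the same period. The embryo later compacts, and its outer cells become trophectoderm, marked by Cdx2 and keratins, while inner cells keep Nanog and Pou5f1 and in part turn towards primitive endoderm with Gata6. ERK signalling, fed by fibroblast growth factors, is known for directing inner cells towards primitive endoderm, and Egr1 and Fos are among the genes that it switches on directly.

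Levels are log2(intensity + 1) of the deposited array values, so 1 unit is a doubling, and signals under a level of about 5 lay near background. Of 18194 named genes, 9930 reached that level on at least 2 of the 12 arrays and were tested with limma in a fit over all 6 groups. A gene was called where its Benjamini-Hochberg adjusted p was under 0.05. With 2 arrays per group the standard error of a difference was 0.35 log2 units for the median gene. Nothing in the labels says that the arrays of a group came from separate cultures, although the design mentions 2 independent experiments, so the p-values reflect the scatter between these samples only, and that scatter may be technical. The same mass of total RNA, 0.1 µg, was labelled for every array. Levels are therefore relative to total RNA, and in such whole-embryo RNA fewer cells of a type and less RNA per cell cannot be told apart.

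By their whole profile the released embryos lay near the control embryos of the same day. Over the tested genes, released and control arrays of day 3.5 correlated with r of 0.957 to 0.975 in 4 pairs, against 0.973 between the released arrays and 0.978 between the control arrays. The released arrays were less like control day 2.5 embryos, the control group whose stated cell number includes 8 (r of 0.923 to 0.942), and less like the arrested embryos that preceded them (0.869 to 0.887). These correlations are across genes within pairs of arrays and describe likeness without a test. The median gene differed by 0.24 log2 units in either direction on day 3.5, and 9487 of 9930 genes (95.5%) differed by less than 1 log2 unit. For 4349 genes (43.8%) the 95% interval of the difference also lay within 1 log2 unit, and for the remainder it reached beyond that range.

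Against that background 31 genes passed the test (0.312% of 9930), 30 of them higher in released embryos (0.302%) and 1 lower (0.0101%). At an unadjusted p under 0.05 there were 398 genes higher (4.01%) and 301 lower (3.03%). The released and control arrays did not overlap in 37.5% of all tested genes and in all of the 31, which were called on this difference. Their number rested on single arrays, with 15 and 6 genes called when 1 released array was left out (array 1 and array 2), and 1 and 30 when 1 control array was left out (array 1 and array 2). The 30 calls without control array 2 were 24 higher and 6 lower, and 13 of them were among the 31. It was 20 with a pseudocount of 16, 13 when only the 4 arrays were fitted, and 2 with no filter on low values. The differences of the 31 genes were at least 1.39 log2 units in size in each of the 4 fits without an array, while only Obox3 passed in all 4 and 16 genes passed in none.

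**Figure D1:**
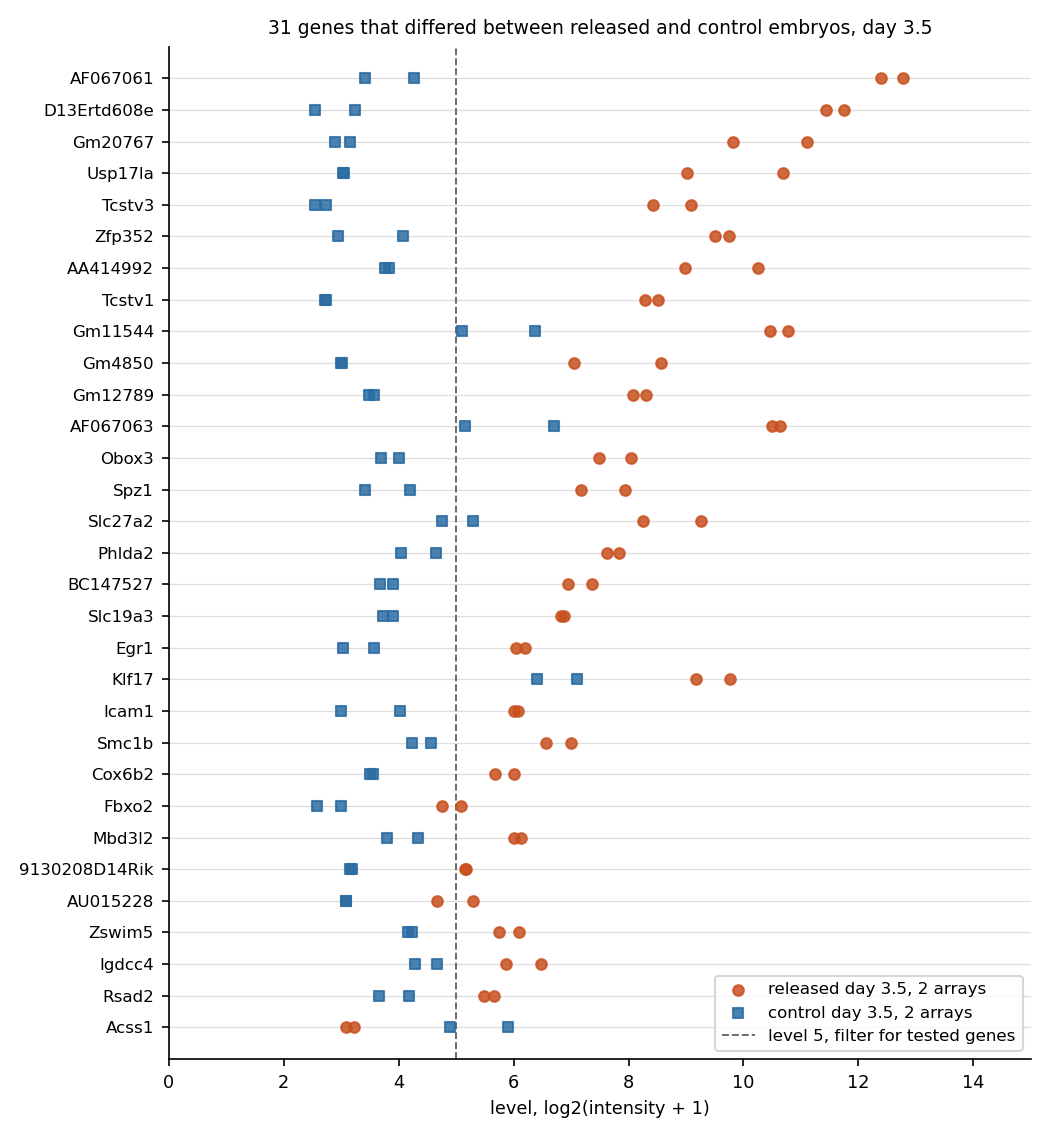
Levels of the 31 genes that passed the test, one row per gene, ordered by the released minus control difference. Circles are the 2 released arrays and squares the 2 control arrays of day 3.5, the horizontal axis is log2(intensity + 1), and the dashed line is the level of 5. In 26 of the 30 genes that were higher in released embryos both control arrays lay under that line.

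Large rises were seen in genes known from the 2-cell embryo. Zfp352, a zinc finger gene of that stage, had levels of 9.50 and 9.74 in released embryos, against 2.94 and 4.07 in control embryos (difference 6.11 ± 0.79, standard error; limma adjusted p = 0.0102). Both control arrays were near background, so the change is given as at least 24.6-fold higher, counted from a level of 5. Tcstv1, of the 2-cell-stage variable transcripts, was at 8.28 and 8.51 in released embryos and at 2.72 and 2.74 in control embryos (5.67 ± 0.72, adjusted p = 0.0102). Its relative Tcstv3 differed by 6.12 ± 0.90 (adjusted p = 0.0234), and Usp17la, which encodes a deubiquitinating enzyme, by 6.81 ± 1.02 (adjusted p = 0.0234). The released arrays were high for all of these genes and the control arrays were at the floor.

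From a list of 24 genes of the 2-cell stage, only 9 matched a named gene, and these were tested. Of the 9, 5 rose (Zfp352, Tcstv1, Tcstv3, Usp17la and Spz1), against 0.302% of all genes tested. The list median was 3.87 log2 units against -0.01 over all genes tested. The list was chosen with earlier results of these data known, and Tcstv1 and Tcstv3 lie at 1 locus, so the count is no independent support. Spz1, a helix-loop-helix transcription factor described in the testis, had levels of 7.18 and 7.94 in released embryos, against 3.41 and 4.20 in control embryos (3.75 ± 0.56, adjusted p = 0.0234). Tdpoz1, of a family of proteins with TRAF and POZ domains, differed by 3.87 ± 0.71 without passing (adjusted p = 0.0590), and Sp110, a nuclear body protein, by 2.66 ± 0.53 (adjusted p = 0.0795). Trim43a was high on every array, at 12.85 and 12.62 in released embryos and at 12.29 and 12.84 in control embryos, and Arg2 was near background in both groups.

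Large differences also belonged to transcripts with no functional name. AF067061 had levels of 12.39 and 12.77 in released embryos, against 3.42 and 4.27 in control embryos (8.74 ± 0.95, adjusted p = 0.00493, at least 191-fold higher). D13Ertd608e had 11.43 and 11.75 in released embryos, against 2.54 and 3.24 in control embryos (8.70 ± 1.02, adjusted p = 0.00793, at least 96.3-fold higher). For AF067061 the levels in released embryos were close to those of the control 2-cell embryos, at 12.45 and 12.81. D13Ertd608e stood higher in the control 2-cell embryos, at 12.9 and 13.17.

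Several of these genes are neighbours. The RefSeq annotation lists 31 genes on chromosome 13 between AF067063 and Tcstv3, the last gene listed on that chromosome. Of these, 7 had a named probe set that was tested (AF067063, D13Ertd608e, Tcstv1, Gm20767, AF067061, BC147527 and Tcstv3). All 7 rose, by between 3.36 (BC147527) and 8.74 (AF067061) log2 units, against 0.302% of all genes tested called higher. Both end genes were themselves called, so the stretch was drawn around calls and 7 of 7 was in part fixed by that choice. Gm20767 differed by 7.44 ± 0.95 (adjusted p = 0.0102) and AF067063 by 4.63 ± 0.68 (adjusted p = 0.0234). Genes of the locus may be near-identical copies, and probes of one may bind transcripts of another, which could not be checked here. These 7 genes therefore cannot be taken as independent of each other, and the level of a single member is uncertain.

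Further called genes included oocyte and germ-line genes and uncharacterised transcripts. Obox3, an oocyte-specific homeobox gene, was at 8.05 and 7.49 in released embryos and at 4.01 and 3.69 in control embryos (3.92 ± 0.34, adjusted p = 0.00254, at least 6.83-fold higher). Klf17, a Krüppel-like factor of oocytes and early embryos, remained well above background in both groups, at 9.17 and 9.77 in released embryos and at 6.40 and 7.10 in control embryos (2.72 ± 0.45, 6.59-fold, adjusted p = 0.0413). Mbd3l2, a relative of the methyl-CpG binding proteins, differed by 2.00 ± 0.33 (adjusted p = 0.0377), and Smc1b, a cohesin subunit of meiosis, by 2.38 ± 0.41 (adjusted p = 0.0496). The predicted or uncharacterised genes Gm11544 (4.88 ± 0.50, adjusted p = 0.00314), Gm4850 (4.80 ± 0.59, adjusted p = 0.0100), Gm12789 (4.66 ± 0.79, adjusted p = 0.0450), AA414992 (5.81 ± 0.71, adjusted p = 0.00960) and AU015228 (1.90 ± 0.28, adjusted p = 0.0234) moved the same way.

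The stretch before the start of 4 of these genes is printed because they belong to different parts of the genome and rose together. Each line holds the 150 bases before the RefSeq start on assembly GRCm38.p6, read along the gene, and the capitals mark the letters TATAA.
Zfp352 (chr4:90218670-90218819, plus strand): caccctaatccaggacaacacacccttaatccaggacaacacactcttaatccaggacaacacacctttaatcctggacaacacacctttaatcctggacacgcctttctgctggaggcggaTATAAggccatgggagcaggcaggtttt
Gm12789 (chr4:101986690-101986839, plus strand): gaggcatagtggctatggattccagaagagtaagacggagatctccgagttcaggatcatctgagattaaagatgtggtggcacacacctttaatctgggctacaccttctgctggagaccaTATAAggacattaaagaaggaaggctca
AF067061 (chr13:120262945-120263094, plus strand): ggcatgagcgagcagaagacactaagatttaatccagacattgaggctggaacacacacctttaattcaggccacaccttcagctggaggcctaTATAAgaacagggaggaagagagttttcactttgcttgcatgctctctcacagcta
Obox3 (chr7:15639778-15639927, minus strand): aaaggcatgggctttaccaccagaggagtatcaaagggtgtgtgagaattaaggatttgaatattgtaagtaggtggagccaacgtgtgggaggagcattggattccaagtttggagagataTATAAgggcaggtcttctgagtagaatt
The letters TATAA were looked for after these sequences had been seen. On the strand of the gene they occurred within 250 bases before the start in 8 of the 19 called higher genes that had an entry (42.1%), in 818 of 8157 tested genes (10.03%) and in 4971 of all 27025 genes of the table (18.4%). With both strands searched, the shares were 42.1%, 14.8% and 25.8%. The 4 printed genes are counted in the 8, so the share of the called genes was in part fixed by how the letters were chosen. Some of the 19 may be copies of one another, and the match describes letters only, not a bound site or a cause.

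Most of these genes were also high in the control embryos of day 1.5. Of the 30 genes called higher, 24 had their highest group mean in control embryos of day 1.5 at the 2-cell stage, 5 in the released embryos of day 3.5, and 1 in control embryos of day 2.5. Their median level was 7.75 in released embryos and 3.80 in control embryos of day 3.5, with 6.95 under U0126 on day 2.5, 5.27 in control embryos of day 2.5 and 9.82 in control embryos of day 1.5. In the controls most of these genes had lower levels by day 2.5. From arrays outside this comparison, 27 of the 30 (90.0%) were lower on day 2.5 than on day 1.5, against 47.3% of all genes tested. Both released arrays also lay above both control arrays of day 2.5 in 24 of the 30, against 34.2% of all genes tested. The released arrays were the ones on which the 30 were called. By day 4.5 in released embryos the median was 4.97.

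**Figure D2:**
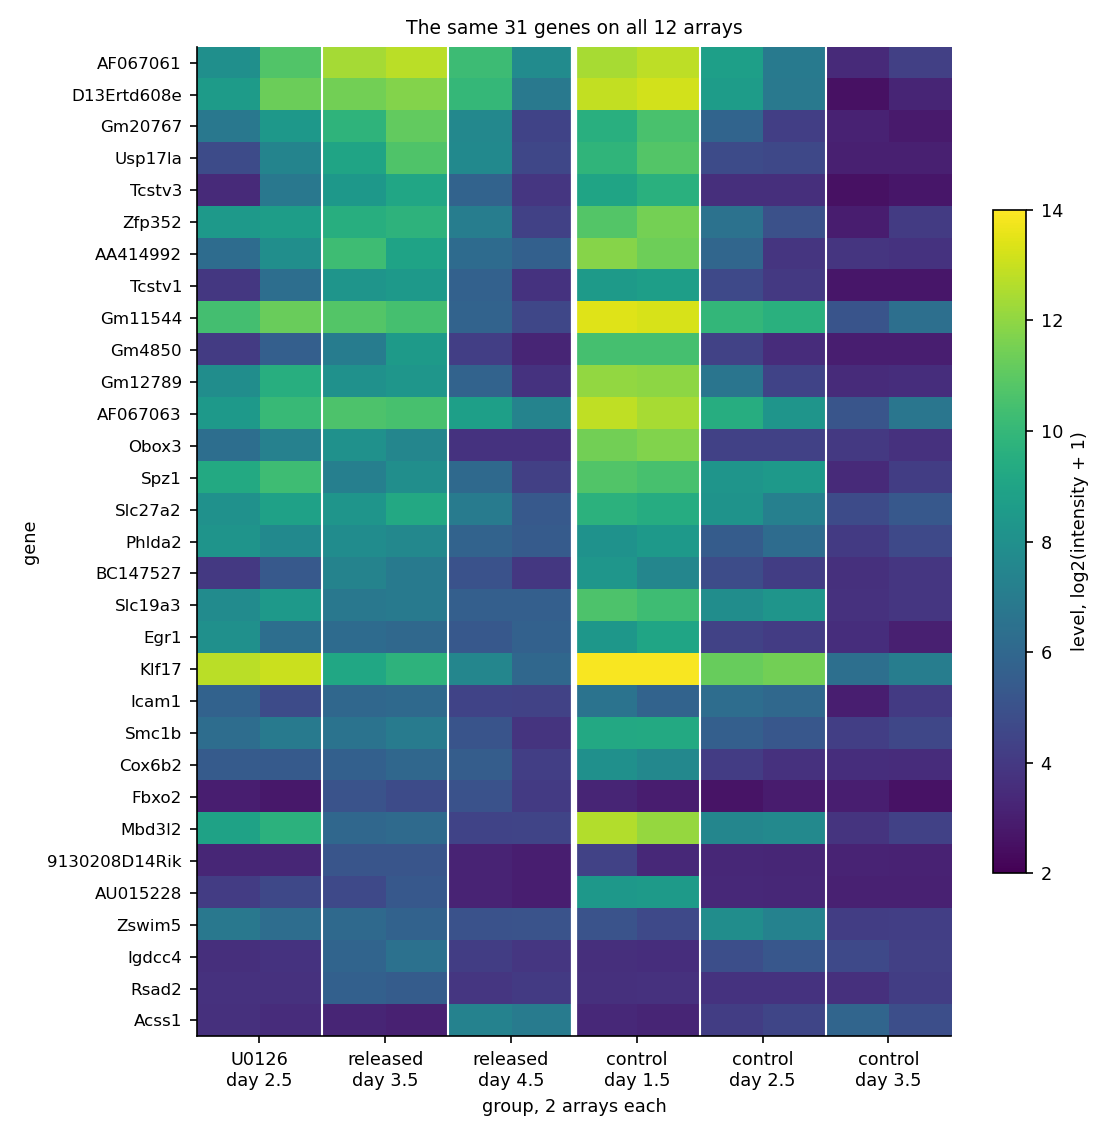
The 31 genes on all 12 arrays, with treated and released embryos on the left and control embryos on the right, each in order of day. Colour gives log2(intensity + 1). Most rows are bright in released day 3.5 and control day 1.5 embryos and dark in control day 3.5 embryos, and the arrays of U0126 day 2.5 and of released day 4.5 embryos differ from each other within their group.

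Arrays of one group were uneven for some of the 2-cell genes. Tcstv3 stood at 3.45 and 6.82 under U0126 on day 2.5, and at 5.83 and 3.92 in released embryos of day 4.5. Zfp352 had 7.10 and 4.34 in released embryos of day 4.5. Among the released embryos of day 3.5 Usp17la stood at 9.01 and 10.69. The part of differing mixtures of embryos in this unevenness was not tested.

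A second set of called genes was not tied to the 2-cell stage. Igdcc4, a member of the immunoglobulin superfamily, was at 5.87 and 6.47 in released embryos, against 4.67 and 4.28 in control embryos (1.69 ± 0.29, adjusted p = 0.0471). Rsad2, an interferon-induced antiviral gene, was at 5.66 and 5.48 in released embryos, against 3.65 and 4.18 in control embryos (1.65 ± 0.25, adjusted p = 0.0265). Fbxo2, which encodes an F-box protein that binds glycoproteins, differed by 2.14 ± 0.34 (adjusted p = 0.0358), and 9130208D14Rik by 1.99 ± 0.31 (adjusted p = 0.0327). The levels of these 4 genes in released embryos lay between 4.76 and 6.47, and the signal was therefore close to background even where they were highest. Rsad2 and 9130208D14Rik reached a level of 5 only on the released arrays of day 3.5, so they entered the test only through the group where they are high and had to differ. Zswim5, a zinc finger gene with its highest level in control embryos of day 2.5, had 6.10 and 5.75 in released embryos, against 4.16 and 4.23 in control embryos (1.73 ± 0.30, adjusted p = 0.0490).

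The called genes also included transporters, a respiratory subunit and an adhesion molecule. Slc27a2, a very-long-chain fatty acid transporter and acyl-CoA synthetase, had levels of 8.26 and 9.26 in released embryos, against 4.75 and 5.29 in control embryos (3.75 ± 0.56, 13.4-fold, adjusted p = 0.0234). Slc19a3, a thiamine transporter, had 6.82 and 6.88 in released embryos, against 3.72 and 3.91 in control embryos (3.04 ± 0.30, adjusted p = 0.00314, at least 3.61-fold higher). Cox6b2, the testis form of a cytochrome c oxidase subunit, differed by 2.31 ± 0.39 (adjusted p = 0.0450). The adhesion molecule gene Icam1 differed by 2.54 ± 0.42 (adjusted p = 0.0420). Each of these genes had its highest group mean in the 2-cell control embryos of day 1.5. These means were 9.58 for Slc27a2, 10.48 for Slc19a3, 7.81 for Cox6b2 and 6.19 for Icam1. For Icam1 the mean in control embryos of day 2.5 was nearly the same, at 6.17.

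Acss1, which encodes the mitochondrial acetyl-CoA synthetase, was the only gene called lower in the fit of all arrays, against 6 without control array 2. It was at 3.23 and 3.09 in released embryos, against 5.91 and 4.90 in control embryos (-2.25 ± 0.33, adjusted p = 0.0234, at least 1.33-fold lower). Both released arrays were at background, and control array 1 gave most of the gap. The pancreatic elastase gene Cela3b, picked out after its values were seen, had a larger fitted difference of -2.50 ± 0.58 that did not pass (adjusted p = 0.137).

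Phlda2, an imprinted gene that restrains placental growth, was the only imprinted gene called among 11 tested, against 0.302% of all genes called higher. It had 7.84 and 7.62 in released embryos, against 4.05 and 4.65 in control embryos (3.38 ± 0.34, adjusted p = 0.00314, at least 6.65-fold higher). Its highest group mean was 8.29, in the 2-cell control embryos of day 1.5. Its neighbour Cdkn1c, a cell cycle inhibitor, had 6.47 and 7.06 in released embryos and 4.22 and 4.76 in control embryos (2.27 ± 0.40, adjusted p = 0.0521), and Meg3, a long noncoding RNA, had a difference of 1.43 ± 0.33 (adjusted p = 0.140). The list median was 0.73 log2 units, with 9 of 11 genes above 0 against 49.1% of all genes tested. At an unadjusted p under 0.05, 4 of the 11 were higher and 0 lower, against 4.01% and 3.03% of all genes.

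Egr1, an immediate-early gene switched on by ERK, was the only one called among 19 tested ERK targets, against 0.302% of all genes called higher. It had 6.20 and 6.04 in released embryos, against 3.57 and 3.04 in control embryos (2.82 ± 0.48, adjusted p = 0.0471, at least 2.17-fold higher). Under U0126 on day 2.5 it stood at 8.02 and 6.35, and in control embryos of that day at 4.39 and 4.14. Its highest levels were in the 2-cell control embryos of day 1.5, at 8.33 and 9.06. Dusp6, a phosphatase of ERK, differed by 0.08 (95% interval -0.66 to 0.83) and Spry4 by 0.17 (-0.46 to 0.80), both with levels under 5, near background, on every array of the comparison. Fos differed by 0.68 ± 0.37 (adjusted p = 0.833), Jun, a partner of Fos named after its values were seen, by 0.93 ± 0.33 (adjusted p = 0.526) and Myc by 0.36 ± 0.28 (adjusted p = 0.981). The list median was 0.10 log2 units, and 14 components of the cascade itself gave 0 calls with a median of -0.18.

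**Figure D3:**
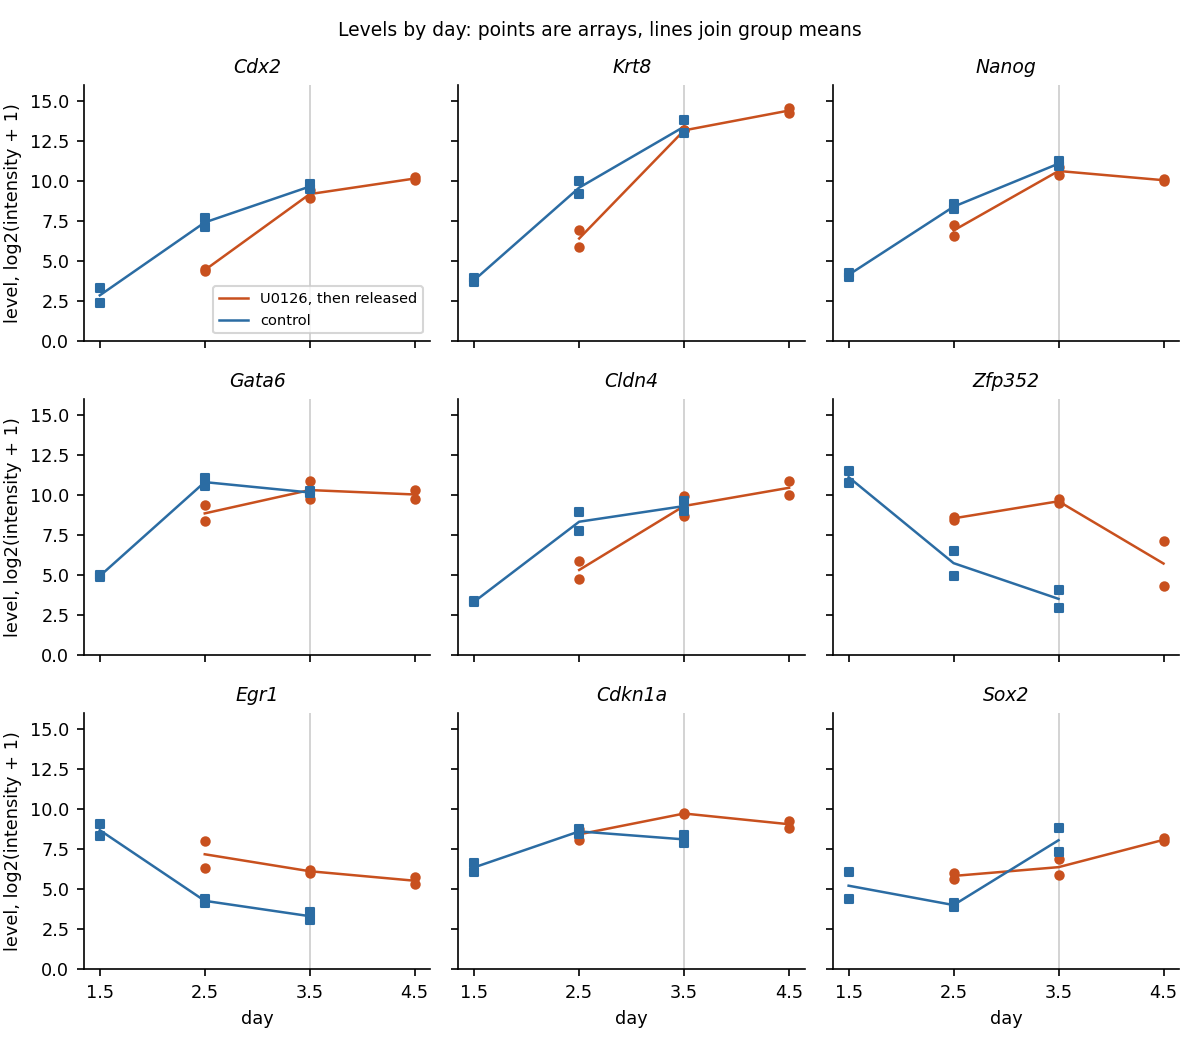
Levels of 9 genes by day, in log2(intensity + 1), with embryos under U0126 and then released as circles and control embryos as squares. Points are single arrays, lines join group means, and the vertical line marks day 3.5. Cdx2, Krt8, Nanog, Gata6 and Cldn4 did not pass the test on that day, whereas Zfp352 and Egr1 were higher in released embryos.

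No gene of the lineage lists was called between released and control embryos at day 3.5. With 0.312% of all genes called, 0 in lists of this size is near the background and is no result about the lineage genes. The list counts given below at an unadjusted p under 0.05 stand against 4.01% of all genes higher and 3.03% lower. Cdx2, which drives the trophectoderm, had levels of 9.46 and 8.91 in released embryos, against 9.81 and 9.50 in control embryos (-0.47 ± 0.35, adjusted p = 0.968, 95% interval -1.25 to 0.30). The arrays of the groups did not overlap, but the 95% interval of the difference included 0. Krt8, a keratin of the trophectoderm, was at 13.18 and 13.17 in released embryos and at 13.84 and 12.98 in control embryos (95% interval -1.16 to 0.70), and its partner Krt18 at 12.23 and 12.28, against 12.98 and 11.75. Both genes overlapped between the groups. In control embryos of day 2.5, whose stated cell number includes 8, Krt8 stood at 9.98 and 9.19.

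Among 19 trophectoderm markers 0 passed, with 1 higher and 3 lower at an unadjusted p under 0.05 and a median of -0.23 log2 units. Tfap2a, a transcription factor of this lineage, had the lowest value, with 6.33 and 6.15 in released embryos, against 9.19 and 7.21 in control embryos (-1.96 ± 0.54, adjusted p = 0.277). Id2 had 10.58 and 11.38 in released embryos, against 12.78 and 11.56 in control embryos (-1.19 ± 0.44, adjusted p = 0.557), and Eomes 7.51 and 7.62, against 9.19 and 8.00 (-1.03 ± 0.64, adjusted p = 0.892). In these genes control array 1 stood well above control array 2. Over the list, control array 1 exceeded array 2 in 16 of 19 markers, by a median of 0.80 log2 units, against 56.3% and 0.07 over all genes tested. The released arrays showed no such split, with array 1 above array 2 in 9 of 19. The part of a difference in stage between the control arrays, which were described as morula to blastocyst, was not tested.

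The inner cells were represented by a list of inner cell mass and pluripotency genes. Of 27 tested 0 passed, with 1 higher and 2 lower at an unadjusted p under 0.05 and a median of 0.01 log2 units. Nanog had 10.90 and 10.36 in released embryos, against 11.25 and 10.93 in control embryos (-0.46 ± 0.32, adjusted p = 0.948), and Pou5f1 had 11.77 and 10.64, against 11.29 and 10.89 (0.12 ± 0.46, adjusted p = 0.999). Sox2, a partner of Pou5f1, had 5.90 and 6.86 in released embryos and 8.80 and 7.32 in control embryos, with no overlap and a difference of -1.68 ± 0.59 that did not pass (adjusted p = 0.491). Nodal, a growth factor of the TGF-beta family picked out after its values were seen, had a difference of 1.56 ± 0.87 (adjusted p = 0.845).

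For the primitive endoderm 16 genes were tested and 0 passed, with 2 higher and 1 lower at an unadjusted p under 0.05 and a median of 0.11. Gata6, the earliest of these factors, was at 10.88 and 9.76 in released embryos and at 10.23 and 10.11 in control embryos, so the groups overlapped (95% interval -0.81 to 1.11). Pdgfra, a receptor of the same lineage, had 5.04 and 5.73 in released embryos, against 7.52 and 6.39 in control embryos (-1.57 ± 0.49, adjusted p = 0.396). Sox17, a later factor of this lineage, was near background in both groups.

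Compaction and cavity formation gave no calls either, again near the background of 0.312% of all genes called. In 31 genes of junctions, adhesion and polarity the median was -0.22 log2 units, with 0 higher and 2 lower at an unadjusted p under 0.05. Cdh1, which encodes E-cadherin, averaged 11.09 ± 0.13 in released embryos and 11.34 ± 0.22 in control embryos (SD, n = 2 each), with a difference of -0.26 (95% interval -0.95 to 0.44). The tight junction gene Cldn4 differed by 0.00 (95% interval -1.23 to 1.24). Of the genes that pump ions and water into the cavity, Atp1b1, a subunit of the sodium pump, differed by -0.58 ± 0.32 (adjusted p = 0.835) and the aquaporin gene Aqp3 by 0.48 ± 0.49 (adjusted p = 0.999). Control array 1 exceeded control array 2 in 23 of the 31 junction genes (74.2%), against 56.3% of all genes tested. It also did so in 20 of 24 actin cytoskeleton genes and 49 of 69 oxidative phosphorylation genes, but in 18 of 39 ribosome biogenesis genes. The excess was therefore not particular to lineage or junction genes. The Hippo pathway list of 21 genes, which holds the outer-cell signal that permits Cdx2, had a median of 0.04, and its target Ccn2 differed by 0.22 ± 0.35 (adjusted p = 0.999).

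The lists of growth, respiration and division genes gave no calls. With 0.312% of all genes called, this is near the background and is no result about these genes. Ribosomal proteins (36 genes, median 0.03), ribosome biogenesis (39 genes, 0.14), oxidative phosphorylation (69 genes, 0.04), S phase (50 genes, -0.14) and mitosis (38 genes, 0.00) each had 0 genes past the test. The largest differences in these lists were below 1 log2 unit apart from 1 S phase gene. Every one of the 69 oxidative phosphorylation genes lay between -0.56 and 0.49 log2 units, and every tested ribosomal protein gene between -0.11 and 0.56. In all, 22 of 25 lists with at least 5 tested genes had no call, where 0.312% of all genes were called. Their 597 different genes held 38 higher and 18 lower at an unadjusted p under 0.05, against 4.01% and 3.03% of all genes tested.

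Targets of p53 and inhibitors of the cell cycle came nearest to a shared difference without a call. Of 23 tested, 0 passed, 8 were higher and 0 lower at an unadjusted p under 0.05 (against 4.01% and 3.03% of all genes), and the median was 0.68 log2 units against -0.01 over all genes. Cdkn1a, which encodes the inhibitor p21, had 9.74 and 9.73 in released embryos, against 7.86 and 8.37 in control embryos (1.62 ± 0.33, 3.07-fold, adjusted p = 0.0888). Named after their values were seen, Mdm2, which restrains p53, had 7.82 and 7.97, against 6.73 and 6.54 in control embryos (1.26 ± 0.32, adjusted p = 0.195), and the stress-induced Sesn2 had 8.09 and 8.05, against 6.62 and 6.99 (1.26 ± 0.32, adjusted p = 0.190). The released arrays lay above the control arrays for each of these genes, as they did for 18.8% of all genes tested. Mdm2 and Sesn2 were picked on their values, so this is no independent support. Over the list, 17 of the 23 genes had a difference above 0, against 49.1% of all genes tested. Ddit4, a stress gene that restrains growth signalling, differed by 2.58 ± 0.48 (adjusted p = 0.0614). It belongs to the separate stress response list and was also named after its values were seen. Of the 29 tested genes of that list it had the highest difference, while 11 were above 0 and the median was -0.09.

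The list of maternal oocyte genes gave no call. Of 31 maternal genes tested 0 passed, and the median was 0.11. With 0.312% of all genes called, 0 in a list of this size is near the background. At an unadjusted p under 0.05, 7 were higher and 2 lower, against 4.01% and 3.03% of all genes tested. The difference was above 0 in 24 of the 31, against 49.1% of all genes tested. Btg4, which promotes the decay of maternal RNA, was near background in both groups at 4.79 and 4.79 in released embryos and 4.07 and 4.46 in control embryos. Nlrp5, a component of the subcortical maternal complex, had 6.16 and 5.75 in released embryos, against 4.42 and 4.68 in control embryos (1.41 ± 0.26, adjusted p = 0.0590). Zp3, of the zona pellucida, differed by 1.68 ± 0.47 (adjusted p = 0.272). Both genes were named after their values were seen.

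**Figure D4:**
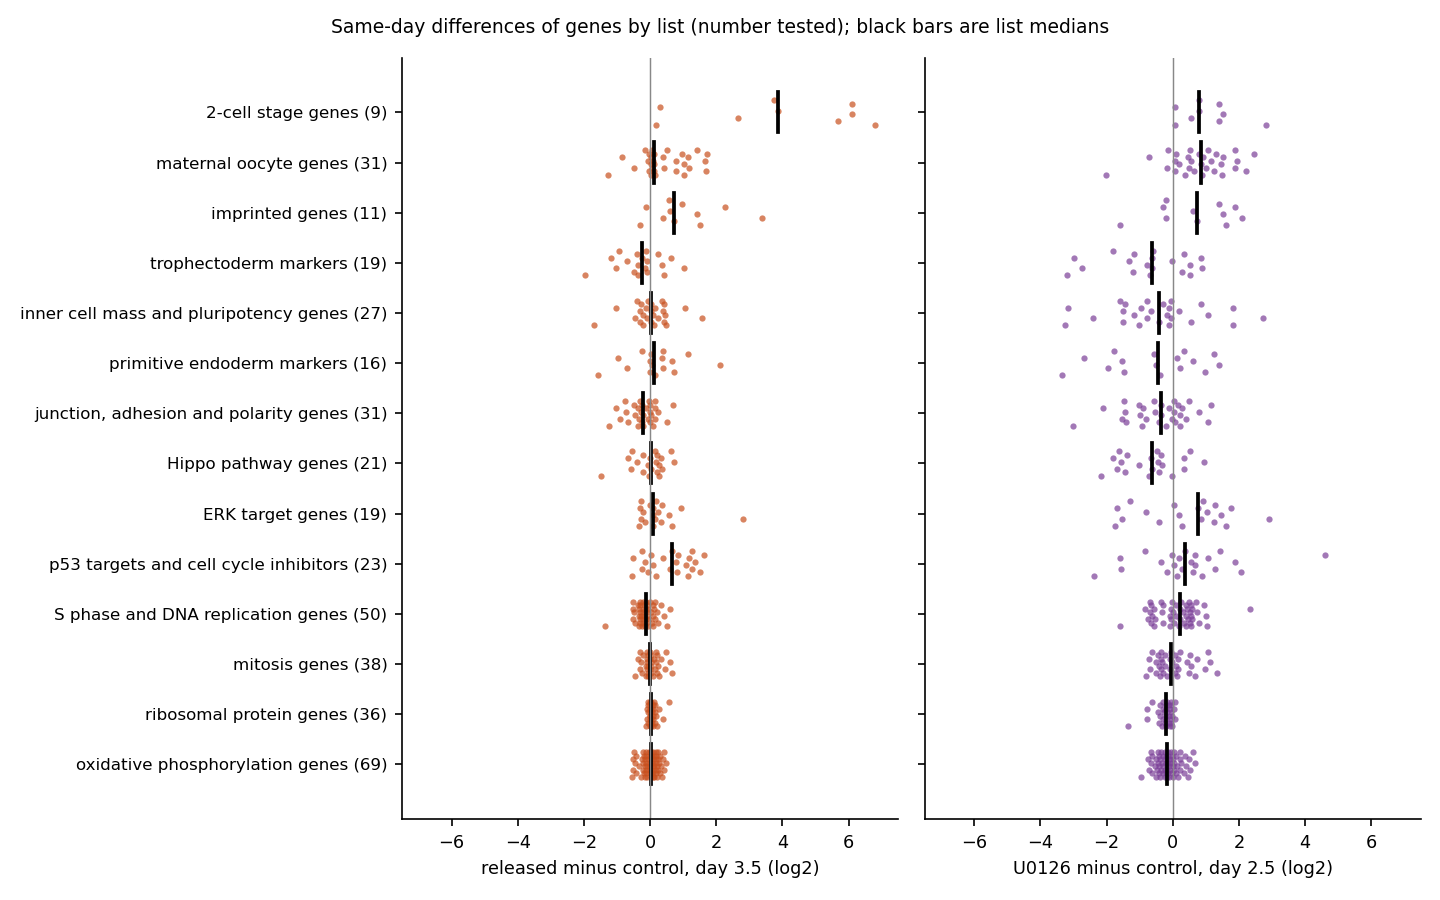
Same-day differences of the tested genes of 14 lists, released minus control on day 3.5 (left) and U0126 minus control on day 2.5 (right), in log2 units. Each point is a gene and the black bar is the list median. On day 3.5 the 2-cell list stands at a median of 3.87 while the medians of the lineage, junction and Hippo lists lie between -0.23 and 0.11, and on day 2.5 the medians of the lineage lists lie below 0.

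The near match of day 3.5 differed from the picture 1 day earlier, measured on arrays that the day 3.5 comparison did not use. Under U0126 on day 2.5, 1384 genes (13.9% of 9930) differed from control embryos of that day, 915 higher (9.21%) and 469 lower (4.72%). Count and direction depended on the processing. Median centring gave 553 higher and 624 lower, and fits of only the 4 arrays compared called 0 genes on day 2.5 and 13 on day 3.5. The 915 genes had a median of 1.53 log2 units on day 2.5 and of 0.02 on day 3.5, and the 469 genes had medians of -1.53 and -0.10. Both sets were chosen on their day 2.5 values, so smaller medians on day 3.5 were in part fixed by that choice. Of the 915, 9 were called higher on day 3.5, which is 0.984% of them and 30.0% of the 30 genes called higher on day 3.5. These were Zfp352, Gm12789, Obox3, Phlda2, Egr1, Klf17, Cox6b2, Mbd3l2 and AU015228. Of the 469, 2 genes, Zswim5 and Igdcc4, were called higher on day 3.5, so they differed from same-day controls in opposite directions on the 2 days. Across the 9930 genes the differences of the 2 days had r = 0.0998, a correlation across genes, which are not independent replicates.

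**Figure D5:**
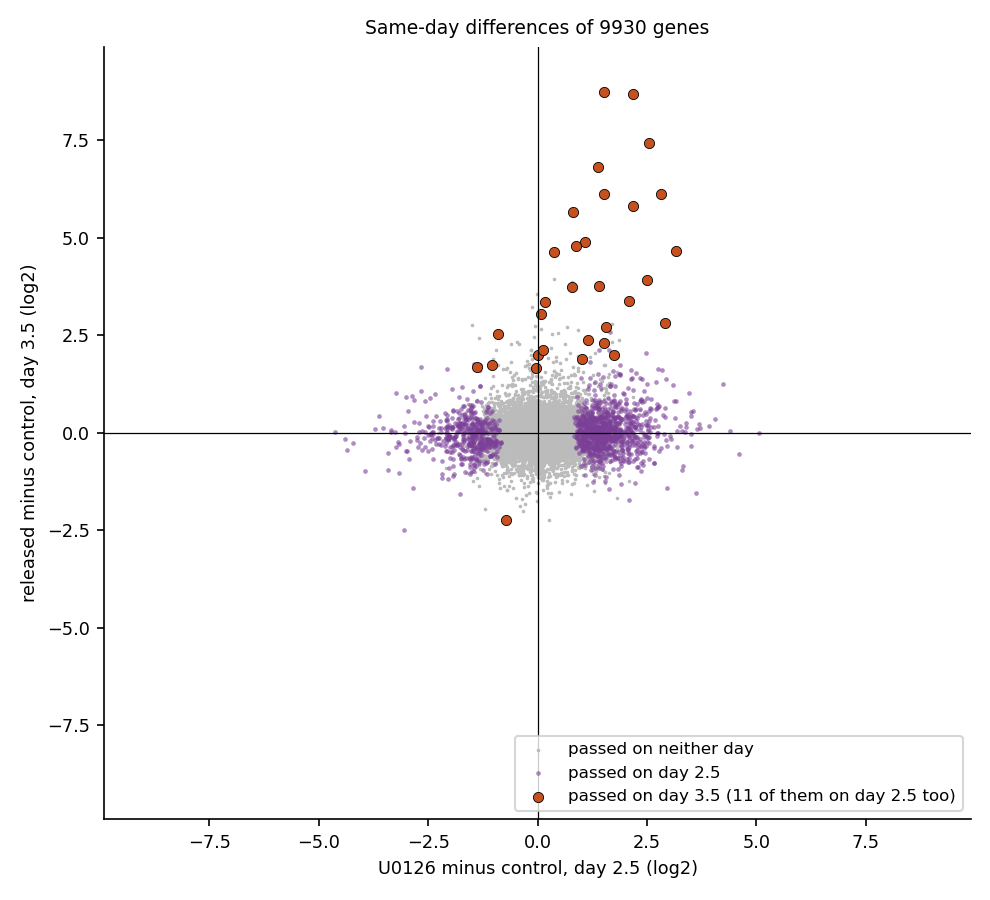
Same-day differences of the 9930 tested genes in log2 units, U0126 minus control on day 2.5 (horizontal) against released minus control on day 3.5 (vertical). Grey genes passed on neither day, purple genes on day 2.5 only, and orange genes on day 3.5, of which 11 also passed on day 2.5. The purple genes spread along the horizontal axis and lie close to 0 on the vertical one. They were chosen for passing on day 2.5 and not on day 3.5, so this shape was in part fixed.

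The change between the 2 days was itself tested as the day 3.5 difference minus the day 2.5 difference, and passed in 298 genes (3% of 9930), 100 of them higher (1.01%) and 198 lower (1.99%). Cdx2 was among them, since it stood at 4.51 and 4.34 under U0126, against 7.69 and 7.13 in control embryos of day 2.5, and the same-day differences of -2.99 on day 2.5 and -0.47 on day 3.5 were 2.51 ± 0.50 apart (adjusted p = 0.0286). Krt8 behaved alike, with same-day differences of -3.19 on day 2.5 and -0.23 on day 3.5 (adjusted p = 0.0297 for the change). Of the 30 genes called higher on day 3.5, 13 had a change between the days that passed. The day 3.5 difference, by which these genes were chosen, is part of that change, so its direction is no result. AF067061 had differed by 1.51 on day 2.5 without passing (adjusted p = 0.344), against 8.74 on day 3.5, a change of 7.23 ± 1.35 (adjusted p = 0.0250). Under median centring the changes that passed were 156 higher and 140 lower, so their balance of directions depended on the scaling.

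Probe sets with no gene symbol or with several were fitted apart. Of 2186 tested, 11 were higher in released embryos (0.503%), by 2.93 to 9.04 log2 units, and 0 were lower (0%). None of them is named. Markers of other cells that could have come with embryos were at background: of 34 matched markers of cumulus, oviduct, sperm and blood cells, 3 were tested, and only Cd68, a gene of macrophages, reached a level of 5 on an array of the comparison, at 5.64 and 5.49 in released embryos and 5.11 and 4.38 in control embryos.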

How the data were processed

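Total RNA of ICR embryos was measured on 12 Affymetrix Mouse Genome 430 2.0 arrays after 2 rounds of amplification, per the labels' protocols. Per the submitters' processing notes the authors used GCRMA, and per the series' design text GCOS 1.2 and GeneSpring 7.3. The authors deposited 1 linear intensity per probe set and array, in an arbitrary unit, with array medians from 10.8 to 11.5. What GeneSpring did to them is not given in these sources.

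The deposited intensities were taken as log2(intensity + 1) with no further normalization. Of 45101 probe sets, 34958 had 1 gene symbol, 932 several and 9211 none. Each of 18194 genes was represented by its brightest probe set, and genes at a level of 5 or more on at least 2 arrays were tested (9930). All 12 arrays entered one fit in limma 3.58.1 (R 4.3.3) with a mean per group (6 residual and 4.51 prior degrees of freedom), tested first on simulated data. Adjusted p-values come from limma with Benjamini-Hochberg adjustment, errors are standard errors, and intervals cover 95%. "At least" folds count from a level of 5. Promoter sequences are RefSeq's.

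Genes were named by rule: the 14 largest calls in each direction without overlap and with a functional symbol, 28 key genes, the 3 largest calls per list and direction, and up to 4 per direction from the calls shared by both days and from the changes between days. The other called genes, and the further genes named, were added after their values were seen. The members, lists and rules were chosen with earlier results of these data known. Alternatives covered the pseudocount, the filter, scaling, the choice of probe set, the arrays fitted, each array left out, and the array number as a block.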

Additional observations from a re-analysis of the deposited data

Results flagged for a closer look

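For 298 genes the same-day difference of day 3.5 (released minus control) differed from that of day 2.5 (U0126 minus control) by limma's test of the change. The values below are these changes in log2 units, positive where the difference was more positive on day 3.5, and no cause was tested.

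Among genes of the 2-cell stage and the genes near the end of chromosome 13 the change was 7.23 for AF067061, 6.53 for D13Ertd608e, 4.86 for Tcstv1, 4.26 for AF067063 and 3.19 for BC147527. Among the other genes called on day 3.5 it was 3.91 for Gm4850, 3.80 for Gm11544, 3.45 for Icam1, 3.08 for Igdcc4, 2.97 for Slc19a3, 2.78 for Zswim5, 1.98 for 9130208D14Rik and 1.69 for Rsad2.

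Tspan1 (4.65), Krt8 (2.95), Cdx2 (2.51) and Myc (2.05) stood below control under U0126 on day 2.5 and did not pass on day 3.5. The surface protein gene Cd24a (4.35) and the growth factor gene Fgf1 (4.28) pointed below control on day 2.5 and above it on day 3.5, and of these calls only that of Cd24a on day 2.5 passed.

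The change was negative, with levels above control under U0126 and no call on day 3.5, for Rdh11 (-5.17), the growth arrest gene Gadd45g (-5.15), Rgs9bp (-5.06), B3gnt5 (-4.37) and Btg4 (-1.94).

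In probe sets outside the named genes, 11 of those with no or several gene symbols were higher in released than in control embryos of day 3.5.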

How the results depend on the processing

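Levels rest on 2 arrays a group, and differences of genes under a level of 5 in one group rest on signal near background. On day 3.5 the 31 calls became 20 with a pseudocount of 16, 2 with no filter on low values and 13 when only the 4 arrays compared were fitted, and ranged between 1 and 30 with 1 array left out, where the lone array is assumed to vary like the others. Filter, scaling and probe set choices gave 28 to 39. The 1384 calls of day 2.5 became 0 in a fit of its 4 arrays alone (2245 at an unadjusted p under 0.05) and 409 to 1183 with 1 array left out. Median centring turned their share of higher calls to 47.0%, against 66.1%, and quantile normalization to 51.2%. The 298 changes between the days became 194 with no filter, 38 in a fit of the 8 arrays, 22 to 396 with 1 array left out and 692 with the array number as a replicate block. Their higher share was 52.7% under median centring and 47.8% under quantile normalization, against 33.6%.

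Arrays with the same number deviated together (r from 0.125 to 0.417 over all pairs of groups), but the labels do not say what the number marks and there are only 2. With the replicate block, 46 genes were called on day 3.5, 30 of the 31 among them, without Smc1b (adjusted p = 0.0553), and 2061 on day 2.5. The 46 were 43 higher and 3 lower. Listed genes called with the block alone were Srgn of the primitive endoderm list (2.12, adjusted p = 0.0219), the imprinted Cdkn1c (2.27, adjusted p = 0.0219), the maternal Nlrp5 (1.41, adjusted p = 0.0463) and Sp110 of the 2-cell list (2.66, adjusted p = 0.0465), so the counts of 0 for the primitive endoderm and maternal lists did not hold there, nor was Phlda2 the only imprinted call.

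Without control array 2 the 30 calls of day 3.5 were 24 higher and 6 lower. The sign turned only in genes that did not pass on day 3.5. With 1 array left out the differences ranged from -0.19 to 0.90 for Sox17, -0.10 to 0.45 for Trim43a, -0.40 to 0.71 for Gata6, -0.45 to 0.68 for Pou5f1, -0.092 to 0.26 for Dusp6, -0.37 to 0.43 for Tspan1, -0.62 to 0.62 for Cldn4, -0.18 to 0.18 for Rgs9bp, -0.72 to 0.51 for Krt18, -0.66 to 0.20 for Krt8, -0.80 to 0.074 for Gata3 and -1.67 to 0.25 for Lgals1. Rgs9bp also turned with a pseudocount of 16 (0.00227) and with median centring (0.00853). The causes were not tested.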

Other observations

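Lists not described above held no calls on day 3.5 either, near the background of 0.312% of all genes called. Glucose uptake and glycolysis (20 genes tested, median 0.22 log2 units, released minus control) had 3 genes higher and 0 lower at an unadjusted p under 0.05, lysosome and endocytosis genes (19 genes, 0.11) had 2 and 0, sterol and fatty acid synthesis (25 genes, -0.10) had 1 and 1, and amino acid transporters (17 genes, -0.17) had 2 and 1. Stress response genes (29 genes, median -0.09) had 4 higher and 2 lower, annexin, S100 and galectin genes (13 genes, 0.13) had 3 and 1, and blastocoel transport genes (8 genes, 0.21) had 1 and 1. The actin cytoskeleton list (24 genes, -0.04) and the list of DNA methylation and chromatin regulators (28 genes, 0.01) had 0 in both directions. Over all genes tested these shares were 4.01% higher and 3.03% lower.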
